A study of Mus musculus with 8 samples.

Results

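Cd74 and the MHC class II genes H2-Aa, H2-Ab1, H2-Eb1, Ciita, H2-DMa and H2-DMb1 were followed in mouse hematopoietic stem and progenitor cells (HSPCs) after a single injection of interferon alpha (IFNα). These 7 genes were taken by symbol from the 27998 genes of the count tables, and were chosen with earlier results of these data known. Bone marrow came from wild-type C57BL/6 mice of 12 to 14 weeks. Control mice received 100 µl of PBS, and the treated animals were given IFNα under the skin (50000 IU for every 20 g that a mouse weighed) and were killed 3, 24 or 72 h later. There were 4 mice in each of the 4 groups, 16 in all, and no genotype other than wild type. The cells were LK cells, which lack mature lineage markers and carry the receptor Kit, with additional LK cells sorted as CD150+ CD48- CD34-, the surface type of hematopoietic stem cells (HSCs). The 4 mice of a time point carried 4 different antibody hashtags and were pooled in 1 single-cell RNA-seq library, so that the time point and its library cannot be told apart.

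MHC class II molecules present peptides from the endosomal route to CD4+ T cells and are known chiefly from B cells, dendritic cells and macrophages. H2-Aa and H2-Ab1 encode the α and β chains of the molecule I-A, and H2-Eb1 the β chain of I-E, which C57BL/6 mice do not assemble because their gene for the Eα chain is defective. Cd74 encodes the invariant chain, which escorts newly made class II molecules to the endosome and fills their groove. H2-DMa and H2-DMb1 encode the DM heterodimer, which releases the remnant of the invariant chain so that peptide can bind. Ciita encodes the coactivator that switches on class II transcription and is itself classically induced by interferon gamma. It is recruited to promoters by proteins bound at a conserved block with an X box and, nearer the gene, a Y box, which is an inverted CCAAT box.

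Of the 7 genes, 5 lie in the MHC on chromosome 17 of GRCm38. H2-DMa occupies 34119541-34139101, H2-DMb1 34153072-34160230, H2-Ab1 34257689-34269419 and H2-Eb1 34305867-34316674, all on the plus strand. H2-Aa lies on the minus strand at 34282744-34287823. Ciita is on chromosome 16 at 10480059-10528418, also on the plus strand. H2-DMb1 has the close copy H2-DMb2 and H2-Eb1 the related H2-Eb2, and how the counting shared reads between such copies is uncertain.

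The upstream sequences of the genes that moved together are shown for this X-Y block. RefSeq promoters (GRCm38.p6) were at hand for H2-Aa, H2-Eb1, H2-DMb1 and H2-DMa, but not for H2-Ab1, Ciita or Cd74. Capitals mark GNAACT, letters of the X box, and ATTGG, the Y box, in the 120 bases before the RefSeq gene start, 5′ to 3′ on the strand of the gene. The letters were chosen after these promoters had been read. The H2-Aa window is chr17:34287824-34287943 (minus strand) and the H2-Eb1 window is chr17:34305747-34305866 (plus strand).
H2-Aa: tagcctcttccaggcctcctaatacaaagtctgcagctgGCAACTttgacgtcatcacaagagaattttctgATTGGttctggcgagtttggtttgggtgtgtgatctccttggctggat
H2-Eb1: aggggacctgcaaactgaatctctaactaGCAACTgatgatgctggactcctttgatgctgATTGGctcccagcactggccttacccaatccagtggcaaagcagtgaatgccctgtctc
The X letters began 81 bases before the start in H2-Aa and 91 bases before it in H2-Eb1, and 27 and 26 bases separated them from the Y box. In H2-DMb1 the same pair stood 94 and 61 bases before the start, again 27 bases apart, while neither of the 2 promoter entries of H2-DMa held the pair in this order. Searched on both strands, GNAACT was in 42.8% and ATTGG in 37.4% of 32851 RefSeq promoters, and both in this order with 20 to 40 bases between them in 304 (0.925%). These matches describe letters and not binding.

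Counts of unique molecular identifiers (UMIs) were kept for 1661 to 3462 cells per time point, with a median of 12017 (3 h) to 18964.5 (control) UMIs per cell. Libraries shared at most 1 cell barcode per pair. Control cells formed 13 clusters, named from marker genes, and treated cells took the label of their nearest control cells. The cluster called HSC-like held 297 control, 386, 552 and 505 treated cells at 3, 24 and 72 h and expressed all 12 listed HSC markers, with Ly6a and Hlf among its 10 leading genes beside the immune genes Jchain, Ltb, Mzb1 and Gimap1. The other classes were called LMPP-like (lymphoid-primed multipotent progenitors; Dntt, Flt3, Cd34), myeloid progenitor-like (Mpo, Elane), erythroid progenitor-like (Klf1, Car1) and MK progenitor-like (megakaryocyte; Pf4, Itga2b). Control mouse 4 gave 10 HSC-like cells, against 73 to 120 in the other 3 control mice. It also gave 11 LMPP-like and 15 myeloid cells. Its erythroid and MK cells were too few to be used, so the erythroid and MK classes have 3 control mice. Levels are counts per 1000000 UMIs (CPM) summed over the cells of a class in each mouse, after removal of 21 mature cells described at the end.

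In HSC-like cells, Cd74 and the 3 genes of class II chains were up-regulated at 24 h after IFNα, and none of them was called higher than control at 3 or 72 h. Of the 6 genes that passed the filter on low counts, 5 were called higher at 24 h (Benjamini-Hochberg adjusted p under 0.05, quasi-likelihood test in edgeR over 9242 genes), against 2.72% of all genes called higher and 0.768% called lower. The median change of the 6 was 1.05 on the log2 scale, beside 0.00 over all genes. H2-DMa did not pass, and Ciita was too rare to be tested.

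H2-Aa stood at 92.4, 33.3, 67.3 and 9.27 CPM in the 4 control mice, at 67.9, 75.8, 60.5 and 64.2 CPM at 3 h, at 126, 256, 167 and 233 CPM at 24 h and at 47.9, 91.2, 74.1 and 76.1 CPM at 72 h. All 24 h mice were above all mice of the other groups, which overlapped among themselves. The log2 fold change of H2-Aa at 24 h was 1.61 ± 0.21 (SE, 4 against 4 mice; edgeR adjusted p = 6.92e-07), a 3.05-fold rise. At 3 h it was 0.01 ± 0.27 (edgeR adjusted p = 0.993) and at 72 h 0.09 ± 0.24 (edgeR adjusted p = 0.935).

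H2-Ab1, the partner chain of H2-Aa, stood at 73.9, 65.4, 62.6 and 18.5 CPM in control mice, at 61.9, 74.2, 50.4 and 45.1 CPM at 3 h, at 80.1, 125, 113 and 105 CPM at 24 h and at 82.6, 94.4, 90.1 and 77.0 CPM at 72 h. Its 24 h mice were all above the control mice but overlapped those of 72 h. The change was smaller, 0.71 ± 0.14 at 24 h (log2, edgeR adjusted p = 0.00130). At 72 h its 4 mice were still above the control mice, with a log2 change of 0.38 ± 0.15 that did not pass (edgeR adjusted p = 0.234).

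H2-Eb1, the β chain without a partner in this strain, stood at 37.0, 17.8, 17.1 and 9.27 CPM in control mice, at 37.9, 31.6, 24.4 and 27.8 CPM at 3 h, at 50.4, 118, 78.8 and 103 CPM at 24 h and at 29.7, 33.9, 47.2 and 23.4 CPM at 72 h. Only the 24 h mice lay above all mice of the other 3 groups. Its log2 change at 24 h was 1.87 ± 0.24 (edgeR adjusted p = 7.01e-07), or 3.65-fold, and at 72 h 0.43 ± 0.29 (edgeR adjusted p = 0.572).

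Cd74, the invariant chain, stood at 396, 206, 108 and 9.27 CPM in control mice, at 136, 163, 63.8 and 48.6 CPM at 3 h, at 383, 703, 545 and 752 CPM at 24 h and at 83.7, 144, 96.6 and 96.2 CPM at 72 h. Control mouse 1 overlapped the 24 h mice, while all 24 h mice were above all mice of 3 and 72 h. The log2 change was 1.38 ± 0.25 at 24 h (edgeR adjusted p = 2.17e-04). Cd74 was also called lower, the only one of the 6 tested genes to be so, at 3 h (-1.24 ± 0.33, edgeR adjusted p = 0.00588) and at 72 h (-1.17 ± 0.29, edgeR adjusted p = 0.0129), where 4.51% and 1.03% of all genes were called lower.

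These falls rested on a few control cells. The 5 HSC-like cells with the most Cd74 UMIs held 62.1% of the 845 control UMIs, and at 24 h the top 5 held 6.84% of 4287. A cell of control mouse 1 carried 273 Cd74 UMIs with 2838 of Jchain, 91 of Mzb1 and 33 of Cd79a, and a cell of control mouse 2 carried 101 Cd74 UMIs with 1965 of Jchain, 65 of Mzb1 and 19 of Cd79a. Jchain, Mzb1 and Cd79a are genes of the antibody-secreting and B lineage. Both cells had 0 UMIs of H2-Aa, Kit and Hlf, and 68 and 21 of Ly6a. The 5 control HSC-like cells with at least 10 UMIs over 17 marker genes of mature antigen-presenting cells held 44.9% of the control Cd74 UMIs and 99.9% of those of Jchain. In treated HSC-like cells this limit was met by 1 cell, at 72 h, which had 0 Cd74 UMIs. Without such cells, a removal chosen after seeing the data, Cd74 stood at 204, 86.6, 105 and 9.26 CPM in control mice. The log2 change was then -0.44 ± 0.30 at 3 h (edgeR adjusted p = 0.388), -0.36 ± 0.27 at 72 h (edgeR adjusted p = 0.625) and 2.19 ± 0.22 at 24 h (edgeR adjusted p = 5.92e-09). Without control mouse 1 it was -0.57 at 3 h, -0.49 at 72 h and 2.06 at 24 h, and neither fall passed (edgeR adjusted p = 0.281 and 0.495). DESeq2, on all cells, did not call Cd74 at 24 h (1.69, adjusted p = 0.0844). H2-Aa, H2-Ab1 and H2-Eb1 kept their 24 h calls in each of the 12 alternative fits and in each of the 16 fits that left out 1 mouse.

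**Figure D1:**
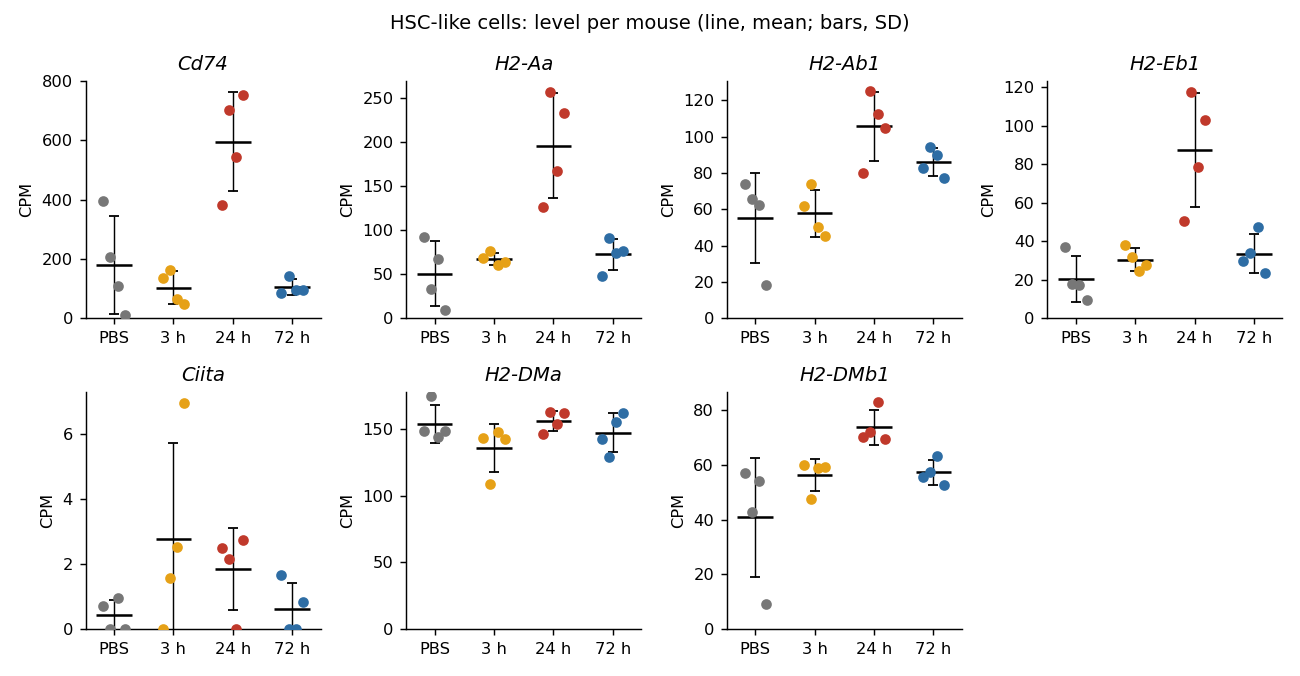
Level of each gene (CPM, from 0) in HSC-like cells, 1 point per mouse, for PBS and 3, 24 and 72 h after IFNα. Lines are means and bars SDs over 4 mice. Cd74, H2-Aa, H2-Eb1 and, less steeply, H2-Ab1 and H2-DMb1 stand highest at 24 h, H2-DMa lies between 109 and 175 CPM throughout, and Ciita is at most 6.95 CPM.

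The DM genes moved little. H2-DMb1 stood at 56.9, 42.8, 54.1 and 9.27 CPM in control mice and at 70.2, 72.0, 83.0 and 69.3 CPM at 24 h, with no overlap, and its log2 change was 0.54 ± 0.14 (edgeR adjusted p = 0.0181). This call was lost without control mouse 2 or 3 or 24 h mouse 2 or 3, and when every cell with at least 5 H2-Aa UMIs per 10000 was removed (0.49, edgeR adjusted p = 0.0693). H2-DMa, expressed at 144 to 175 CPM in control mice, was at 146 to 163 CPM at 24 h, and its log2 change of 0.02 had a 95% interval from -0.17 to 0.21. Reads of H2-DMa could also be affected by the overlapping gene Brd2 if strand was not used in counting.

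Ciita gave 27 UMIs in all HSC-like cells of the 16 mice. Its level was 0 to 0.948 CPM in control mice, 0 to 6.95 CPM at 3 h, 0 to 2.75 CPM at 24 h and 0 to 1.65 CPM at 72 h. These groups overlapped, and at this depth no change of the class II coactivator was detectable in HSC-like cells. Summed over the whole compartment, Ciita gave 78 UMIs and was also too rare to be tested. There its 72 h mice (0.358 to 0.814 CPM) were all above the control mice (0 to 0.285 CPM). The share of all genes without such overlap was not taken.

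The order in time was tested between treated groups. From 3 to 24 h, 4 of 6 tested genes were called higher in HSC-like cells, against 4.33% of all genes, with log2 steps of 2.63 ± 0.29 for Cd74, 1.60 ± 0.21 for H2-Aa, 1.64 ± 0.24 for H2-Eb1 and 0.92 ± 0.15 for H2-Ab1 (edgeR adjusted p from 2.66e-09 to 1.67e-05). From 24 to 72 h, 3 were called lower, against 1.45% of all genes, with steps of -2.55 ± 0.25 for Cd74, -1.52 ± 0.18 for H2-Aa and -1.44 ± 0.20 for H2-Eb1 (edgeR adjusted p from 2.84e-09 to 2.92e-06). H2-Ab1 was not called lower at that step.

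The share of HSC-like cells with a transcript was highest at 24 h. After thinning each cell to 5000 UMIs, 44.3%, 61.3%, 53.6% and 55.3% of HSC-like cells of the 4 mice at 24 h had a Cd74 UMI, and the means over mice were 15.4% in controls, 20.6% at 3 h, 53.6% at 24 h and 21.6% at 72 h. Unthinned, the means were 22.7%, 25.4%, 63.5% and 28.8%, at a median depth of 10744, 8196, 11649 and 10211 UMIs. The thinned shares left out 9, 33, 14 and 25 cells with fewer UMIs. For H2-Aa the thinned means were 13.3%, 17.4%, 41.9% and 23.6%, and for H2-Eb1 10.2%, 10.0%, 28.5% and 12.6%. Control mouse 4, with 10 cells, was at 0% for both Cd74 and H2-Aa (10% for each unthinned), which lowered these control means. For control mice 1, 2 and 3 the shares were 23.28%, 18.57% and 19.57% for Cd74 and 28.45%, 12.86% and 11.96% for H2-Aa. Over pooled thinned cells, 79.9%, 80.2%, 44.6% and 79.6% had 0 Cd74 UMIs in time order, so control, 3 h and 72 h were alike. UMIs per cell with a Cd74 UMI were 5.75, 2.56, 6.28 and 2.59 in time order, so that control and 24 h were close, with the control value including the few cells of very high count. For H2-Aa they were 2.24, 1.70, 2.53 and 1.72. Erythroid progenitor-like cells, which should lack class II molecules, had Cd74 UMIs in at most 0.450% of cells and H2-Aa UMIs in at most 1.04% (means over mice at a time point) at the same thinned depth. Unthinned, at a control median of 26297 UMIs, these means were at most 1.47% and 3.5%.

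H2-Ab1 had another baseline. It was detected in 24.6% of control HSC-like cells and 37.7% at 24 h, but also in 21.5% of control erythroid cells and 14.3% of control myeloid cells at the same thinned depth. In these 2 classes its level was 33.6 and 32.3 CPM while Cd74, H2-Aa and H2-Eb1 were each at or under 1.05 CPM. The ratio of H2-Ab1 to the other chains thus differed between classes, and why was not tested. H2-DMa was broad as well, in 56.6% of control HSC-like, 61.1% of LMPP-like, 36.9% of myeloid and 22.4% of erythroid cells.

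**Figure D2:**
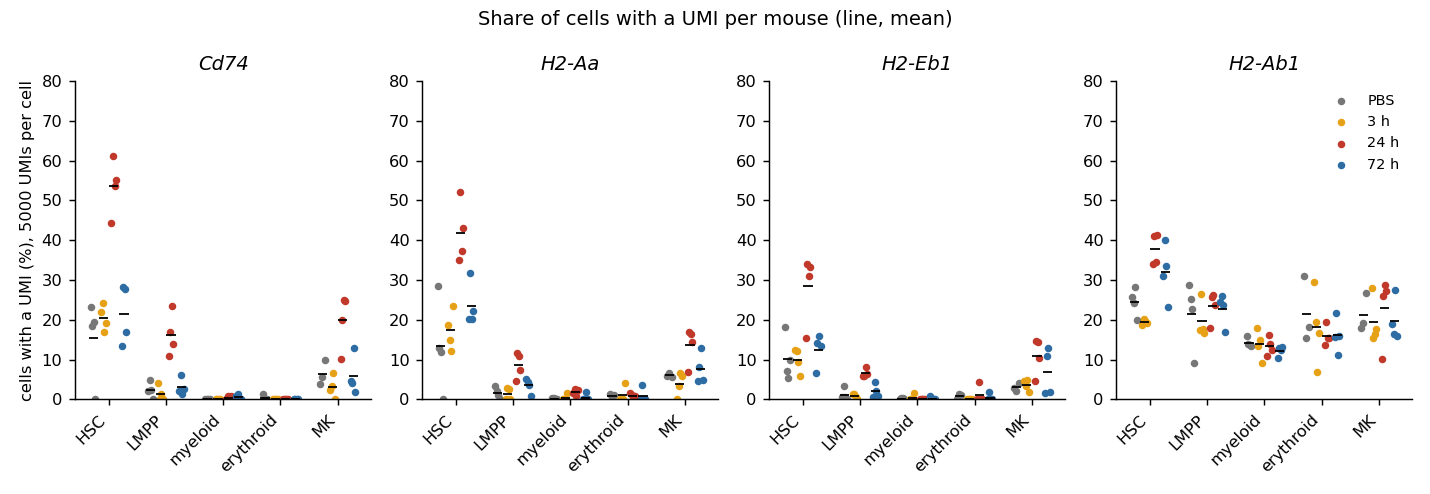
Share of cells (%) with at least 1 UMI of Cd74, H2-Aa, H2-Eb1 and H2-Ab1, 1 point per mouse and lines at the mean, by class and time point, each cell thinned to 5000 UMIs. For Cd74 the 24 h mice of HSC-like cells reach 44.3% to 61.3% and those of MK progenitor-like cells 10.2% to 25.0%. LMPP-like cells at 24 h have a mean of 16.3%, and erythroid and myeloid cells have means of at most 0.576%. H2-Ab1 is found in a mean of 12.3% of cells or more in every class.

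HSC-like cells with 5 or more Cd74 UMIs (thinned) made up 4.51%, 2.55%, 25.5% and 2.08% of cells at control, 3, 24 and 72 h, which was 13 of 288, 9 of 353, 137 of 538 and 10 of 480 cells. At 24 h 44.6% of HSC-like cells still had 0 Cd74 UMIs, so the class was not uniform at this depth. Detection of the genes overlapped in part. At 24 h, 83.1% of HSC-like cells with H2-Aa also had Cd74, against 33.6% of those without H2-Aa, and 49.4% had H2-Eb1, against 14.6%. Cells with UMIs of all 3 genes numbered 13, 12, 112 and 26 in time order, which at 24 h was 20.8% of the class, and cells with none of them 69.4%, 69.1%, 34.6% and 64.6%. These are shares over pooled cells, given as a description, since cells of 1 mouse are not replicates and a deeper or larger cell shows more of every gene.

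**Figure D3:**
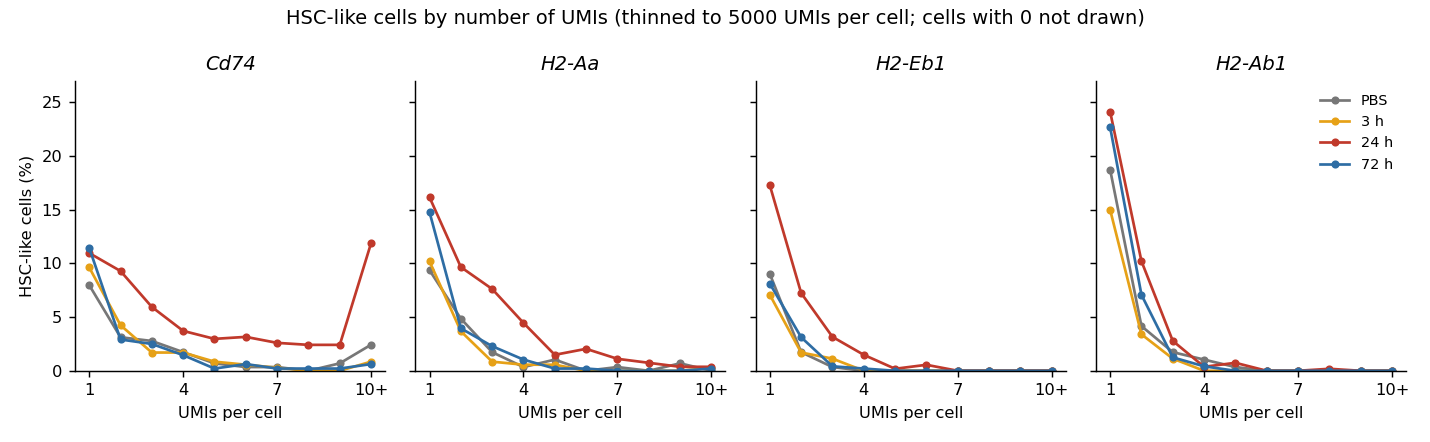
Share of HSC-like cells (%) by number of UMIs of Cd74, H2-Aa, H2-Eb1 and H2-Ab1, thinned to 5000 UMIs per cell, with 1 line per time point and cells at 0 not drawn. The 24 h line lies above the others for Cd74 from 2 UMIs upward, and cells with 10 or more Cd74 UMIs appear mainly at that time.

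The same genes rose at 24 h in LMPP-like cells from a much lower level. Cd74 stood at 4.64, 7.95, 5.37 and 0 CPM in control mice and at 31.4, 59.1, 106 and 42.1 CPM at 24 h, with no overlap, and returned to 5.88 to 24.0 CPM at 72 h. The log2 change at 24 h was 3.31 ± 0.36 (edgeR adjusted p = 1.57e-08). H2-Eb1 went from 0 to 3.61 CPM in controls to 7.06 to 17.3 CPM (2.26 ± 0.34, edgeR adjusted p = 1.07e-05), and H2-Aa from 4.28 to 9.85 CPM to 7.70 to 26.6 CPM, with 1 overlapping mouse (1.63 ± 0.30, edgeR adjusted p = 2.12e-04). These 3 of 6 tested genes were called higher, against 4.70% of all genes. Outside 24 h H2-Eb1 was at most 8.85 CPM, so it may have passed the low-count filter only through its 24 h mice. Its place in this count is then partly set by the filter. The H2-Eb1 call was kept in each of the 12 alternative fits, which include the fit without the filter. H2-Ab1, H2-DMa and H2-DMb1 were not called, with log2 changes of 0.13, -0.16 and 0.07. From 3 to 24 h 4 genes were called higher (5.49% of all genes) and from 24 to 72 h 3 were called lower (2.25% of all genes). At 3 and 72 h edgeR called none of the 6 against controls, with 1 at an unadjusted p under 0.05 at each time, and DESeq2 called none.

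MK progenitor-like cells had Cd74 and all 3 chain genes up at 24 h. Cd74 stood at 9.66, 23.1 and 33.0 CPM in the 3 control mice and at 56.9, 145, 179 and 116 CPM at 24 h, all above the controls, with a log2 change of 2.60 ± 0.39 (edgeR adjusted p = 1.53e-05). H2-Aa (1.65 ± 0.30, edgeR adjusted p = 3.90e-04), H2-Eb1 (1.94 ± 0.41, edgeR adjusted p = 0.00268) and H2-Ab1 (0.67 ± 0.19, edgeR adjusted p = 0.0444) were also called higher, against 2.63% of all genes. The H2-Ab1 call was the least stable, being lost in 6 of 12 alternative fits and in 8 of 15 fits that left out 1 mouse. DESeq2 called only H2-Aa, and it gave no adjusted p for H2-Eb1, so it did not decide on that gene. H2-DMb1 went from 32.4 to 44.9 CPM in controls to 45.5 to 60.6 CPM at 24 h. Its log2 change of 0.45 ± 0.15 was not called (edgeR adjusted p = 0.0924). From 3 to 24 h 3 genes were called higher (2.27% of all genes), and from 24 to 72 h 3 were called lower (1.42% of all genes). At 3 and 72 h edgeR and DESeq2 called none against controls, and none had an unadjusted p under 0.05.

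The myeloid and erythroid classes had very few transcripts of Cd74, H2-Aa and H2-Eb1, unlike those of H2-Ab1. In myeloid progenitor-like cells Cd74 was at 0 to 1.01 CPM in control mice and 1.64 to 3.98 CPM at 24 h, under the filter, and H2-Aa at 0 to 1.01 and 1.64 to 3.46 CPM. For Cd74 and H2-Aa all 24 h mice of this class were thus above all control mice, at these low levels. Neither was tested against controls here, and the share of all genes without such overlap was not taken. In control mouse 4 this class rested on 15 cells. The 3 genes tested there, H2-Ab1, H2-DMa and H2-DMb1, were not called at any time by edgeR or DESeq2, and none had an unadjusted p under 0.05. In erythroid progenitor-like cells Cd74 reached at most 2.36 CPM in any mouse. H2-DMa was called higher there at 24 h, from 31.3 to 35.6 CPM in controls to 38.4 to 47.9 CPM (0.38 ± 0.12, edgeR adjusted p = 0.0402, 5.88% of all genes), a call that 5 of 12 alternative fits and 5 of 15 fits without 1 mouse did not keep. H2-DMb1 went from 6.25 to 8.14 CPM in erythroid controls to 8.75 to 15.8 CPM at 24 h. Its log2 change of 0.76 ± 0.25 was not called (edgeR adjusted p = 0.0526).

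**Figure D4:**
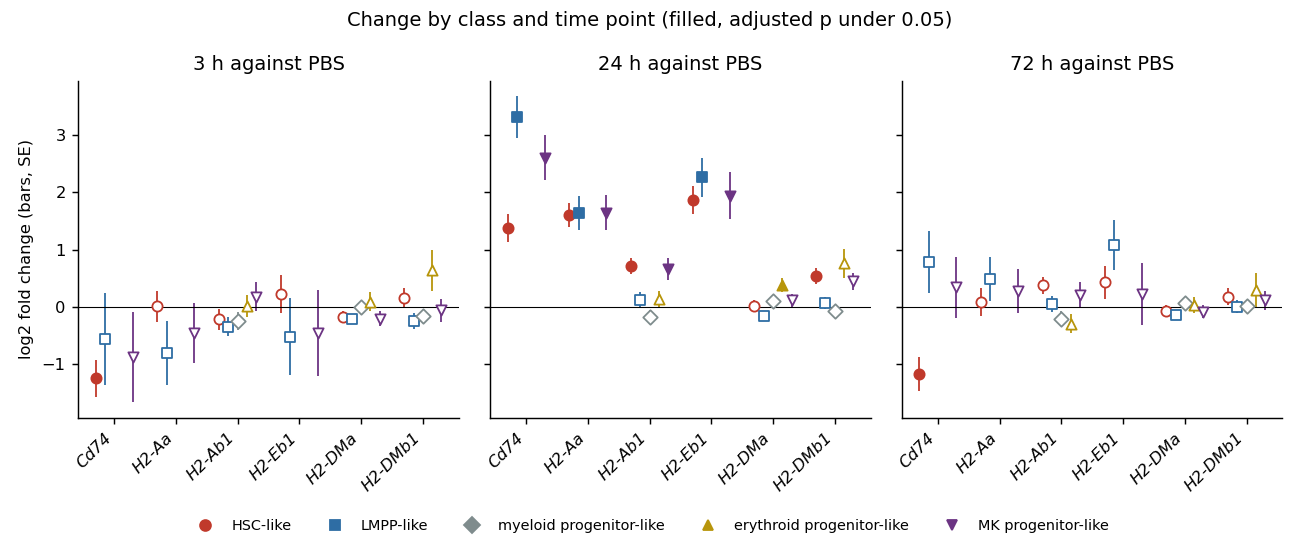
log2 fold change against PBS (points, with SE bars) of the 6 testable genes at 3, 24 and 72 h in 5 classes, where filled points have an edgeR adjusted p under 0.05. At 24 h Cd74, H2-Aa and H2-Eb1 are filled in HSC-like, LMPP-like and MK progenitor-like cells, H2-DMa is filled only in erythroid cells, and the only filled points at 3 and 72 h are the lower values of Cd74 in HSC-like cells, which rested on a few control cells.

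Whether the 24 h changes differed between classes was tested by the interaction of class and time. For H2-Aa and H2-Eb1 the change in HSC-like cells minus that in LMPP-like cells was 0.05 (95% interval -0.74 to 0.84) and -0.31 (-1.09 to 0.46). Cd74 rose less in HSC-like than in LMPP-like cells, by -1.87 ± 0.37 on the log2 scale (edgeR adjusted p = 0.00821), the 1 gene of 6 called lower, against 0.0406% of all genes. Without the cells of at least 10 mature marker UMIs this difference was -1.04 and did not pass (edgeR adjusted p = 0.510), while H2-Ab1, 0.63 higher in HSC-like cells, then did (edgeR adjusted p = 0.0363). Against MK progenitor-like cells no gene was called at 24 h, and 1 (Cd74, -1.31) had an unadjusted p under 0.05. The difference was 0.00 for H2-Aa and 0.06 for H2-DMb1. The SE of the H2-Aa difference, derived from the test statistic, was 0.16, against 0.46 at 3 h and 0.34 at 72 h. It is unreliable for a value so near 0, so no interval is given. The other SEs and intervals were derived in the same way, and those of differences near 0 share this limit. Against myeloid progenitor-like cells H2-Ab1 (0.92 ± 0.17, edgeR adjusted p = 6.55e-04) and H2-DMb1 (0.65 ± 0.17, edgeR adjusted p = 0.0335) rose more in HSC-like cells, against 0.509% of all genes. Cd74, H2-Aa and H2-Eb1 were not called in this comparison. The difference was -1.11 for Cd74 (edgeR adjusted p = 0.219), and -0.25 without the cells of at least 10 mature marker UMIs. It was -0.19 for H2-Aa (95% interval -0.82 to 0.45) and 0.74 for H2-Eb1 (-0.81 to 2.29). These 3 genes had very few transcripts in myeloid cells, so a larger rise in HSC-like cells was not shown for them.

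Within the LMPP-like class the cluster with the higher level was that led by Dntt, Wfdc17 and Flt3 and also by Hlf. There Cd74 over all cells went from 12.3 CPM in controls to 134 CPM at 24 h, and in the other LMPP-like cluster, led by Dntt, Flt3 and Cd34, from 3.39 to 25.9 CPM. An unnamed cluster led by the mitotic genes Nusap1, Prc1 and Cenpf and by Pf4 went from 7.21 to 52.7 CPM. These are pooled values with no test.

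Summed over the whole compartment, 4 genes were called higher at 24 h (Cd74 2.19 ± 0.39, H2-Aa 1.99 ± 0.27, H2-Eb1 2.36 ± 0.33 and H2-Ab1 0.32 ± 0.11, edgeR adjusted p from 1.13e-05 to 0.0389), against 14.4% of all genes. H2-Aa at 3 h (0.95 ± 0.35, edgeR adjusted p = 0.0344, 19.7% of all genes) and H2-Aa and H2-Eb1 at 72 h (1.97-fold and 2.64-fold, edgeR adjusted p = 0.0160 and 0.00540, 18.9% of all genes) were called higher as well. The sum depends on the share of each class in the sort and on rare cells. In 4 monocyte-like cells at 3 h that were not removed as mature, Cd74 stood at 12300 CPM and H2-Aa at 4769 CPM. The 3 h call was lost when the monocyte-like cluster was left out, and no gene was called at any time with the mature cells kept in.

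The mature cells were set apart by having at least 10 H2-Aa UMIs per 10000 and at least 3 UMIs over the 17 marker genes of mature antigen-presenting cells, so their high H2-Aa is a description. There were 9, 2, 7 and 3 of them at control, 3, 24 and 72 h, or 0.364%, 0.120%, 0.202% and 0.123% of kept cells, and they held 67.2%, 41.4%, 18.8% and 44.7% of all Cd74 UMIs. Of the 21 cells, 18 fell in the monocyte-like cluster and 3, all of 24 h mouse 3, in the HSC-like cluster. Their medians per 10000 UMIs were 136 for Cd74, 72.3 for H2-Aa, 43.2 for H2-Ab1, 23.9 for H2-Eb1, 10.1 for H2-DMb1 and 4.68 for H2-DMa. Ciita was found in 8 of the 21 cells. Clec9a, a gene of conventional dendritic cells, was found in 15 cells, Kit in 11, the B cell gene Cd79b in 9 and Cd209a, of monocyte-derived dendritic cells, in 2. The B cell genes Cd79a and Ms4a1, the macrophage genes C1qa and Adgre1 and Ccr7, of migrating dendritic cells, were at 0 in all. Apart from Kit these markers were part of the rule. Of the HSC markers, Ly6a was found in 7 of the 21 cells, Mllt3 in 6, and Hlf, Procr, Mecom, Pdzk1ip1 and Ifitm1 in 3 each. Ctla2a was found in 2 cells, Slamf1, Fgd5 and Esam in 1 each and Hoxb5 in 0. Whether the 3 cells of the HSC-like cluster were mature cells or HSCs was not tested. Just inside the limit the lowest H2-Aa was 12.4 per 10000. HSC-like cells with 10 or more H2-Aa UMIs per 10000 numbered 4, 1, 25 and 2 in time order, and those with 5 or more 15, 11, 87 and 16. Of these only the 3 mature cells, counted here at 24 h, were removed, since the others had too few marker UMIs.

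The summed level of the 17 mature markers in HSC-like cells ranged from 50.8 to 116 CPM in control mice, 38.2 to 44.0 CPM at 3 h, 46.3 to 65.0 CPM at 24 h and 46.8 to 62.2 CPM at 72 h, and at 24 h Ms4a1, Siglech, Cd209a and Clec9a were at 0. The 6 B cell markers summed to 50.8 to 136 CPM in controls and 38.7 to 53.5 CPM at 24 h. The 11 dendritic cell markers summed to 0 to 25.8 and 7.22 to 15.4 CPM, the 7 macrophage markers to 0 to 9.92 and 5.89 to 11.4 CPM, the 8 monocyte markers to 223 to 317 and 240 to 283 CPM, and the 5 T and NK cell markers to 81.3 to 196 and 137 to 192 CPM, in control and 24 h mice. Their part in the Cd74 and class II values, beyond the removal above, was not tested.

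**Figure D5:**
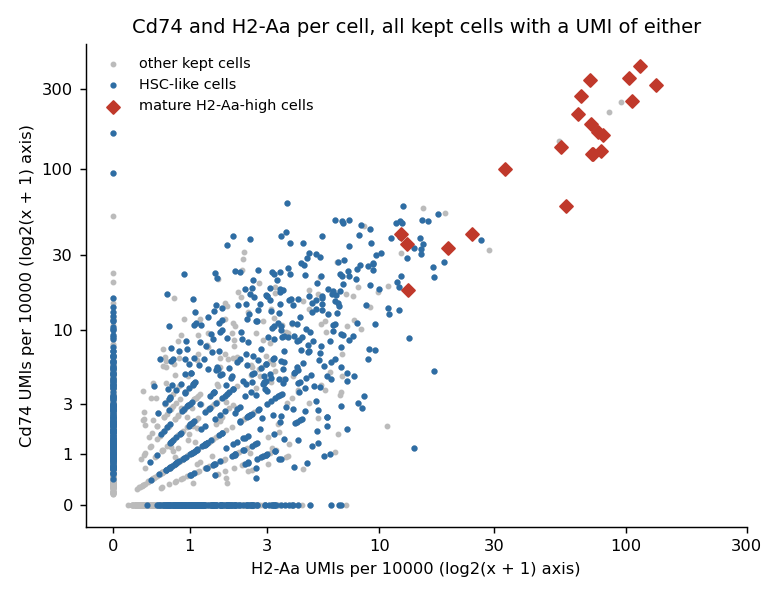
Cd74 against H2-Aa (UMIs per 10000, log2(x + 1) axes) in every kept cell with a UMI of either, with HSC-like cells in blue and the 21 mature H2-Aa-high cells as red diamonds. Mature cells lie between 12.4 and 132 H2-Aa UMIs per 10000, other HSC-like cells reach 26.5, and 2 HSC-like control cells stand at 0 H2-Aa with 94.0 and 165 Cd74 UMIs per 10000.

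Genes of the surrounding pathways were taken from lists and followed in HSC-like cells. The comparisons share the control mice and are given side by side. Of 17 partner genes of class II presentation in the tables, 10 were tested. At 3 h 3 were called higher (Ctss, Cd86 and Sppl2a, 10.9% of all genes), at 72 h Ctss, a protease that trims the invariant chain, was called lower, and at 24 h none was called by edgeR or DESeq2, 1 had an unadjusted p under 0.05, and the median log2 change was -0.03. Among genes that act on class II transcription, Socs1, Irf1, Irf2 and Ezh2 were called higher at 3 h, with log2 changes of 3.05, 1.29, 0.29 and 0.49 (edgeR adjusted p from 1.08e-14 to 0.0482), and none of these 4 was called at 24 h. These genes outside 24 h were named after their values were seen.

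Of the 16 MHC class I genes, 14 were called higher at 3 h, 10 at 24 h and 2 at 72 h. Over all genes 10.9%, 2.72% and 2.50% were called higher at these times. The median log2 changes of the class I genes were 0.96, 0.37 and 0.06. Tap1, the peptide transporter, rose by 1.68 ± 0.13 at 3 h and 0.81 ± 0.13 at 24 h (edgeR adjusted p = 2.67e-13 and 3.70e-05). H2-Q4 rose by 1.28 and 0.78, H2-M3 by 1.01 and 0.65, H2-Q6 by 0.64 and 0.55 and H2-T23 by 1.00 and 0.32 at the same times, the larger value at 3 h. B2m, the light chain, had 0.36 at both times, and H2-K1 and H2-Q7 had more at 24 h (0.38 and 0.76) than at 3 h (0.13 and 0.34). Of 10 tested genes of the interferon gamma route and its classical targets, 6 were called higher at 3 h (10.9% of all genes). At 24 h 5 of these 6 were called higher (2.72% of all genes). At 72 h 1 other gene of the list was called higher (2.50% of all genes), a gene not called at 3 or 24 h. The median log2 changes of the 10 tested genes were 2.0, 0.50 and 0.16 in time order. Among these, Cxcl10 stood at a mean of 0.178 CPM in controls, 470.0 CPM at 3 h and 5.54 CPM at 24 h, Igtp at 25.5, 348 and 47.1 CPM, Gbp2 at 31.1, 211 and 48.9 CPM, Irgm1 at 49.6, 299 and 76.9 CPM and Serpina3g at 116.7, 775 and 160 CPM. Cd74, H2-Aa and H2-Eb1 thus had their highest level at 24 h, and Tap1 and these 5 targets theirs at 3 h. Cxcl10 was at 0 to 0.711 CPM in control mice, and its lowest 24 h mouse was at 0 CPM. It may therefore have passed the low-count filter only through its 3 h mice. Its place among the 10 tested genes, and among those called at 3 and 24 h, is then partly set by the filter.

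Over the 20 means of 5 classes at 4 times, log2(CPM + 1) of Cd74 went with that of H2-Eb1 (r = 0.99), H2-Aa (0.98) and H2-Ab1 (0.89), and less with H2-DMa (0.61) and H2-DMb1 (0.57). Among 5832 other genes with a mean over 20 CPM in HSC-like cells, the 5 most like Cd74 were Wfdc2 and Hspb11 (r = 0.95 each), Rras, Dcun1d1 and Eya2, and the 5 most like H2-Aa were Wfdc2 (0.97), Hspb11, Dcun1d1, Tox and Rras. The points share mice and libraries, and the values mostly follow the difference between classes. In HSC-like cells Wfdc2 was at 18.9, 26.6, 28.4 and 19.3 CPM and Hspb11 at 44.8, 38.6, 43.5 and 36.6 CPM in time order.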

How the data were processed

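The authors deposited 1 table of raw UMI counts per time point, made with Cell Ranger 3.1.0 against mm10, and hashtag calls made with Seurat. Of 2454 to 4346 barcodes per library, cells with 1 hashtag, at least 700 genes and at most 5% mitochondrial UMIs were kept (1661 to 3462), which also removed hashtag multiplets. No other doublet caller was run. Total UMIs kept were 23823015 to 75766639 per library. Control cells were clustered in scanpy 1.11.5 (500 variable genes, 10 principal components, 15 neighbors, Leiden resolution 0.8), and treated cells took control labels. Counts were summed per mouse and class with at least 10 cells. All groups entered 1 edgeR 4.0.16 quasi-likelihood fit per class (R 4.3.3, TMM scaling, Benjamini-Hochberg adjusted p under 0.05). DESeq2 1.42.0 was an alternative. Differences between classes were tested as interactions with the mouse as a block. For shares, cells were thinned to 5000 UMIs. The fits were tested on simulated data with 200 changed genes. SEs were derived from the log2 change and the test statistic, and are less sure for changes near 0. Intervals are 95%, built from these SEs, and cover the spread between mice of 1 library per time point. The 7 genes and all gene lists were chosen with earlier results of these data known. Named genes were the 7 genes, list genes called in HSC-like cells at 24 h (up to 8 per list, by size of change), and the 5 genes most like Cd74 and H2-Aa. Some list genes are not reported here.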

Additional observations from a re-analysis of the deposited data

Results flagged for a closer look

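In 8 of 111 groups of 4 mice, 1 mouse stood apart from the other 3 by Dixon's test, where chance gives about 1 in 20. In HSC-like cells these were H2-DMa in control mouse 2 (175 CPM, others 144 to 149), and, in mouse 2 at 3 h, H2-DMa (109 CPM, others 142 to 148) and H2-DMb1 (47.4 CPM, others 58.8 to 59.9). In the whole compartment H2-Eb1 stood at 11.6 CPM in mouse 2 at 3 h, against 3.77 to 5.03 CPM. In LMPP-like cells Cd74 stood at 24.0 CPM in mouse 2 at 72 h, against 5.88 to 6.54 CPM. In myeloid progenitor-like cells H2-DMa stood at 96.9 CPM in mouse 1 at 72 h (others 105 to 106), and H2-DMb1 at 61.9 CPM in control mouse 4 (others 46.7 to 49.1). In MK progenitor-like cells H2-Aa stood at 20.2 CPM in mouse 1 at 24 h, against 57.6 to 62.7 CPM.

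The 24 h change differed between classes for 3 genes by the interaction test in edgeR. The change of Cd74 in HSC-like cells minus that in LMPP-like cells was -1.87 (adjusted p = 0.00821), and it did not pass without the cells rich in mature markers. Against myeloid progenitor-like cells the difference was 0.92 for H2-Ab1 (adjusted p = 6.55e-04) and 0.65 for H2-DMb1 (adjusted p = 0.0335).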

How the results depend on the processing

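No called change of the 7 genes in HSC-like cells changed direction, nor did the 24 h calls in the other classes. Changes near 0 that were not called did, such as H2-DMa in HSC-like cells at 24 h (-0.01 to 0.04 over the alternatives, -0.03 to 0.08 without 1 mouse) and H2-Ab1 in erythroid cells without 1 mouse (-0.01 to 0.24). The number of the 7 genes called moved as follows, and the causes were not tested. In the whole compartment it went at 3 h from 1 to 2 with the likelihood-ratio test, DESeq2, library size scaling, no filter or the hashtag number as replicate block, and to 0 with no mature cell removed, without the monocyte-like cluster or with a log2 limit of 1. With no mature cell removed it went from 4 to 0 at 24 h and from 2 to 0 at 72 h, where the log2 limit left 1. In HSC-like cells at 3 h it went from 1 to 0 with DESeq2 or without cells of 10 marker UMIs and to 2 by library size. At 24 h the log2 limit left 3 of 5. At 72 h it went from 1 to 0 with the likelihood-ratio test, DESeq2 or without those cells, and to 2 without cells of 5 H2-Aa UMIs per 10000. LMPP-like cells at 3 h went from 0 to 3 by library size and to 1 with no filter or uncorrected label transfer. Myeloid cells went from 0 to 1 at 3 h by library size and to 2 at 24 h with no filter. Erythroid cells at 24 h went from 1 to 2 with the likelihood-ratio test and to 0 with DESeq2, library size, no filter, the replicate block, uncorrected transfer or the log2 limit. MK cells at 24 h went from 4 to 1 with DESeq2, which gave no adjusted p for H2-Eb1. Against LMPP-like cells the likelihood-ratio test gave 2 differing genes at 24 h and 1 at 72 h, and no filter 1 at 72 h. Against myeloid cells 1 of 2 was left at 24 h without cells of 10 or 5 H2-Aa UMIs per 10000 or with transfer without interferon-stimulated genes, and 1 appeared at 72 h with the likelihood-ratio test or no filter. Against MK cells no filter gave 1 at 24 and at 72 h.

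Leaving out 1 mouse gave, for 3, 24 and 72 h, 0 to 2, 3 to 5 and 1 to 2 genes in the whole compartment and 0 to 1, 4 to 5 and 0 to 1 in HSC-like cells, with 4 to 5 for the step from 3 to 24 h and 3 for that from 24 to 72 h. LMPP-like cells gave 0 to 1 at 3 h and 3 at 24 h, erythroid cells 0 to 2 and MK cells 3 to 4 at 24 h. Differences from LMPP-like cells numbered 0 to 1 at 24 h and at 72 h, and from myeloid cells 1 to 2 at 24 h. The other counts stayed at 0. This was not run for MK against HSC-like cells, a comparison added after seeing the data, as were the removal of cells by marker UMIs and of the monocyte-like cluster.

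Same-numbered hashtags did not pair the mice in the whole compartment (r from -0.17 to 0.25, over 0.1 in 10 of 24 pairs), so the block is an alternative. It changed no count of calls by over 1.5 times beyond those above. Library size scaling moved the median of all genes at 3 h by -0.17 to -0.25 (log2). Depth left Ciita untestable, and control mouse 4 rested on 10 HSC-like cells.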
